A study of Rattus norvegicus with 3 samples.

Results

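A set of 6 genes of skeletal muscle were followed through the thymic epithelium of the rat: Myog, Chrna1, Ckm, Actc1, Tnnt3 and Ryr1. They were chosen by name, and all 6 were found among the 34034 features of the stromal count table. Each was measured in every label that the authors gave to thymic epithelial cells (TECs), mimetic labels included, and in the label vSMC/PC, called the mural label here. That made 2295 epithelial cells in 13 labels and 452 mural cells, of 13226 annotated stromal cells. The stromal library held CD45 negative cells of thymi from Lewis rats aged 8 weeks. A second library held thymocytes of the same strain and age, and a Stereo-seq section of Lewis rat thymus was not used here. No genotype or treatment was varied. The labels do not say how many animals went into a library, and each kind of cell has 1 library, so no test between samples was possible. All intervals are 95% intervals of counting error.

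Thymic epithelium shows self-antigens of many tissues to developing T cells. Part of this display comes from the medullary factor Aire, and part from mimetic cells, rare medullary epithelial cells that carry the transcription programme of another tissue such as muscle, gut or airway. Muscle-like (myoid) cells of the thymus are known for the acetylcholine receptor, the target of autoantibodies in myasthenia gravis. In skeletal muscle, myogenin, the product of Myog, is a basic helix-loop-helix factor that binds E-boxes and drives differentiation. Its programme includes the receptor subunit of Chrna1, the creatine kinase of Ckm, the sarcomeric proteins of Actc1 (cardiac alpha-actin, also made in developing skeletal muscle) and Tnnt3 (fast troponin T), and the calcium release channel of Ryr1.

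The 250 bases before the annotated start of 4 members are shown. Of these, 3 (Myog, Chrna1 and Ckm) were found together in the same few cells, while Actc1 also had a site of its own. Ryr1 was found in those few cells too, but its window is only counted below and not shown. The windows are RefSeq sequences of the build GRCr8, found by gene symbol, and capitals mark E-boxes, CANNTG. The table held 5 of the 6 members, and Tnnt3 was not matched.
Myog, chr13:48297226-48297475, plus strand: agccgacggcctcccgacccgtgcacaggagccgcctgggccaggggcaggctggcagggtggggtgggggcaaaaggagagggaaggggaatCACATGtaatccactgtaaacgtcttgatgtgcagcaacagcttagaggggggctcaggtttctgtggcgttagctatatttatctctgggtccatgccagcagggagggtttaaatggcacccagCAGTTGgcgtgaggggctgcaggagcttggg
Chrna1, chr3:78877354-78877603, minus strand: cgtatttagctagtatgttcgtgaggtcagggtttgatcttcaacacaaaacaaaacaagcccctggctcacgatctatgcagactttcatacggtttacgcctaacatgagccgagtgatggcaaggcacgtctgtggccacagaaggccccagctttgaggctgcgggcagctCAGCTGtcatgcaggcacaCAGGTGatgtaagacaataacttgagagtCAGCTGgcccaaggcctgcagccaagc
Ckm, chr1:88189211-88189460, plus strand: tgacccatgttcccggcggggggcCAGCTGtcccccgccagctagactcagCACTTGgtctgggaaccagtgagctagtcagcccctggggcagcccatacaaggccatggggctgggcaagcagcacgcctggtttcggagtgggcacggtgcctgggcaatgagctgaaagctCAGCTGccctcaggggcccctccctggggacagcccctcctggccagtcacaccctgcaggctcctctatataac
Actc1, chr3:121271828-121272077, minus strand: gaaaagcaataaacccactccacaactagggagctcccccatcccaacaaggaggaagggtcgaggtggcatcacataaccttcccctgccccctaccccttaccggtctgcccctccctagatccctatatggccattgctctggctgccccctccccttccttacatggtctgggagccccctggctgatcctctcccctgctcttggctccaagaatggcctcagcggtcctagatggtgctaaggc

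E-boxes read the same on both strands in the form CANNTG. In these windows Myog held 2, Chrna1 3, Ckm 3, Ryr1 1 and Actc1 0. Of 33469 promoter windows of this length, 65.5% held at least 1 CANNTG, so its presence sets no member apart. The narrower form CAGCTG, which is counted within CANNTG too, occurred 2 times each in Chrna1 and Ckm and not in the other 3. It occurred at least once in 12.0% of all windows and at least 2 times in 1.04%. In Chrna1 these 2 matches began 75 and 27 bases before the start, and in Ckm 226 and 75 bases before it. The MEF2 motif (2.96% of windows), the CArG box of SRF (1.5%) and TATAAA (12.9%) were searched on both strands as exact patterns. They had no exact match in any of the 5 windows. Sites that differ from a pattern by 1 base were not counted, so their absence cannot be read from this. A match describes letters and was not tested as a binding site.

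The epithelial cells held 28882174 unique molecular identifiers (UMIs, counting captured RNA molecules), with a median of 11372 per cell, and the mural cells 3372574 with a median of 6446. The 2 libraries shared 38 cell barcodes, of which 8 were among the epithelial and mural cells and 0 of those 8 had a UMI of a member. Levels are given as CPM, UMIs of the gene per 1000000 UMIs of the label, and labels of at least 20 cells (10 of the 13) are placed in order. In a pool of cells, fewer expressing cells and less RNA per cell give the same CPM, so cells with a UMI are counted beside it. A further 9 cells labelled TEPC, not counted as TECs, held 1 UMI of Chrna1 and 1 of Tnnt3.

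**Figure D1:**
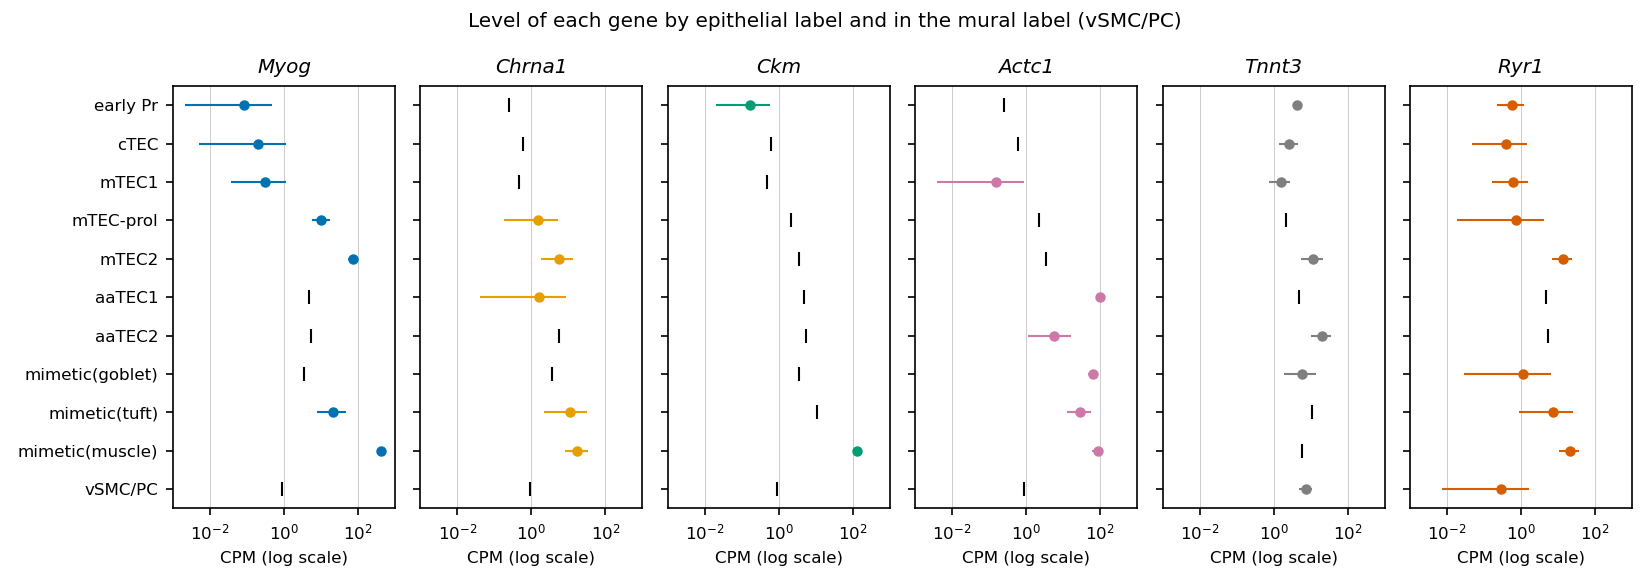
Level of each member (CPM, log scale) in the 10 epithelial labels of at least 20 cells and in the mural label vSMC/PC. Points are levels with exact Poisson 95% intervals, and a black tick stands at 3 UMIs where the count was 0. Myog, Chrna1, Ckm and Ryr1 were highest under mimetic(muscle), Actc1 under aaTEC1 and Tnnt3 under aaTEC2. Chrna1 and Ryr1 were not when the 1 cell with most of their UMIs was left out there alone.

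Much of the Myog and Ckm signal lay in 3 cells. They were the only cells among the 2747 epithelial and mural cells with a UMI of at least 3 members, and all 3 had the label mimetic(muscle). Cell 1 (31836 UMIs, initial cluster TEC-d) held 171 UMIs of Myog, 6 of Chrna1, 56 of Ckm, 6 of Actc1 and 6 of Ryr1. Cell 2 (13876 UMIs, TEC-a) held 31, 1, 9, 12 and 4 of the same genes. Cell 3 (9421 UMIs, TEC-a) held 18 of Myog, 2 of Chrna1, 1 of Ckm, 0 of Actc1 and 1 of Ryr1. Tnnt3 was at 0 in all 3. All 3 cells thus had the factor, the receptor subunit, the kinase and the channel, in amounts that differed widely between them. None of the 3 barcodes was shared with the thymocyte library. The remaining 11 cells with 2 members had no UMI of Ckm. Myog and Chrna1 met in 4 of them. A cell labelled mTEC2 held 11 and 2 UMIs among 28344, and a cell labelled mTEC-prol 8 and 2 among 27215. These had 28 and 10 UMIs of Aire, and 9 and 22 of thymocyte genes. A cell labelled mimetic(tuft) held 5 and 1 among 23302, and another mTEC2 cell 1 and 1 among 39743.

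The share of each member's UMIs in its 5 highest cells separated the members. For Ckm it was 100% (68 of 68 UMIs, 94.7 to 100%), for Myog 80.1% (245 of 306, 75.1 to 84.4%) and for Chrna1 70.0% (14 of 20, 45.7 to 88.1%). For Ryr1 it was 46.3% (19 of 41, 30.7 to 62.6%), for Actc1 29.2% (52 of 178, 22.7 to 36.5%) and for Tnnt3 15% (19 of 127, 9.25 to 22.4%). Over all 16789 genes with at least 20 UMIs in these cells the median share was 4.52%, and 4.06% of the genes reached 50%. Of the 6 members, 3 reached it, but Ckm and Chrna1 passed the filter of 20 UMIs only through their 5 highest cells. Nothing is read from that count. A gene with few UMIs has a high share by construction: with 20 UMIs, as for Chrna1, 5 cells cannot hold less than 25.0%. The 3 cells by themselves held 97.1% of the Ckm UMIs, 71.9% of Myog, 45.0% of Chrna1, 26.8% of Ryr1, 10.1% of Actc1 and 0 of Tnnt3. One cell, cell 1, held 55.9% of all Myog UMIs and 82.4% of all Ckm UMIs.

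**Figure D2:**
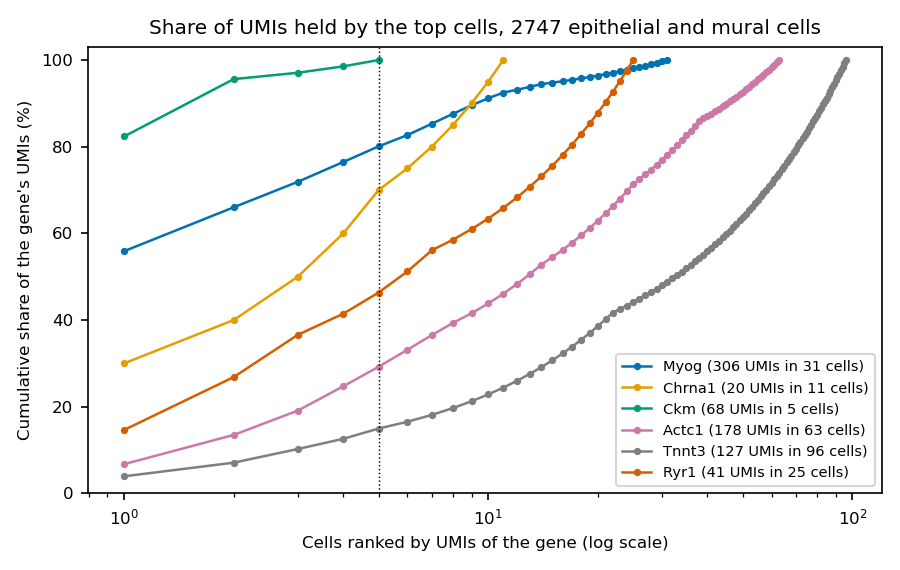
Cumulative share of each member's UMIs (percent) against the rank of the cell by UMIs of that gene (log scale), over 2747 epithelial and mural cells. The dotted line stands at 5 cells, where Ckm was at 100%, Myog at 80.1%, Chrna1 at 70.0%, Ryr1 at 46.3%, Actc1 at 29.2% and Tnnt3 at 15%.

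The label mimetic(muscle) held 35 cells, and for 30 of them the data went against its name. Outside the 3 cells it had 0 UMIs of Myog, Chrna1, Ckm, Tnnt3 and Ryr1, and 26 UMIs of Actc1 in 10 cells. Of the 32, 30 belonged to the initial cluster TEC-e. All 30 had UMIs in the sum of the ionocyte genes Foxi1, Ascl3, Cftr and Atp6v1b1, at 143 to 1487 CPM per cell. Ionocytes are acid- and ion-transporting cells of airway and kidney epithelia, and Foxi1 is their defining factor. Ionocyte genes summed to 648 CPM over the 32 cells and to 864 CPM in the TEC-e cells of other labels, against 0 UMIs in the 3 cells. The other 2 of the 32 belonged to TEC-d and had 0 UMIs of members and of ionocyte genes, which does not settle the name for them. Below, the label's levels are therefore levels of 3 cells diluted by 32, except for Actc1.

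**Figure D3:**
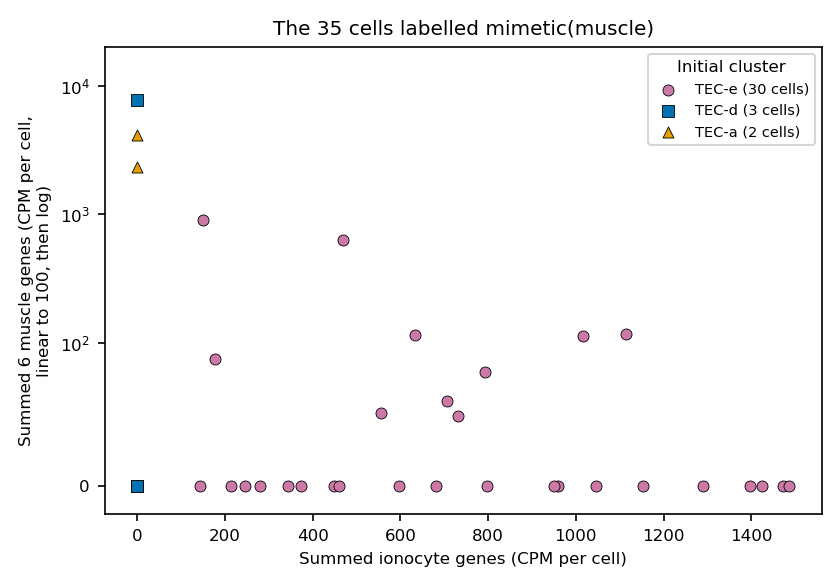
The 35 cells labelled mimetic(muscle), 1 point each, by their summed ionocyte genes (CPM, horizontal) and summed 6 members (CPM, vertical, linear to 100 and logarithmic above). The 3 cells with several members sit at 0 ionocyte CPM, above the 2 other TEC-d cells at 0 on both axes, and the 30 TEC-e cells lie between 143 and 1487.

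Both kinds of marker were present in the 3 cells at once. Epithelial markers summed to 2387, 4901 and 2441 CPM in cells 1, 2 and 3, against 10077 CPM in epithelial cells outside the label and outside TEC-e. Of the 10 epithelial markers only 3, 6 and 4 had a UMI in cells 1, 2 and 3, and 6 in the 3 cells together. Among these, Epcam, an epithelial adhesion molecule, had 55, 2 and 15 UMIs, and Krt8, a keratin of simple epithelia, 19, 42 and 4. The 11 smooth muscle and pericyte genes had 8 UMIs in all 3 cells together (145 CPM), against 10311 CPM in the mural label. The 10 thymocyte genes had 1 UMI, and the endothelial and erythroid markers and a list of 5 cardiac muscle markers had 0. That list left out Actc1 and Tnnt2 (cardiac troponin T), which had 18 and 12 UMIs in the 3 cells together. The 4 tuft-cell genes had 33 UMIs (599 CPM, 412 to 841, against 84.5 CPM in the same other epithelial cells), including Dclk1 at 11, 11 and 0 UMIs. Cell 2 had 19 of these UMIs, from all 4 genes (1369 CPM), and cells 1 and 3 had 11 and 3, from 1 gene each. Single TEC-e cells of other labels reached up to 4306 CPM. The sum pooled over the 3 cells was not particular to them. It was 427 CPM (396 to 460) in TEC-e cells of other labels, 331 CPM in the other 32 cells of the label and 291 CPM in fibroblasts. Aire had 0 UMIs in each. Whether any of the 3 barcodes held more than 1 cell was not tested.

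Other muscle genes were read in the same cells from 7 lists, 78 genes in the file with no member among them. Cells 1, 2 and 3 had a UMI of 36, 28 and 31 of them, and no other epithelial cell had more than 23 (median 6 over 2292 cells). Their summed level was 20899 to 23458 CPM in the 3 cells against a median of 1389 CPM in the others. One other cell reached 23402 CPM, so the number of genes, not the sum, parted the groups. Of the 43 list genes with at least 20 UMIs in the other epithelial cells, 14 were at least 10-fold higher in the 3 cells on at least 3 UMIs. Over all 16409 genes tested in that way, 1.66% were. The other epithelial cells were pooled, and some of the 14 genes were high in the label mTEC2 too. Tnnt2 was at 218 CPM in the 3 cells and 182 CPM in mTEC2, and Cox6a2 at 599 and 252 CPM. Others differed more, as Neb at 2630 and 88.0 CPM and Atp2a1 at 526 and 17.1 CPM. For the members, which chose the cells, 3 of 4 tested passed and nothing is read from that. The 35 list genes with fewer UMIs elsewhere were left out of this count, Myf6 among them, and without that filter 24 of the 78 reached 10-fold. By the label where they were highest, genes with at least 20 epithelial UMIs were led by an epithelial label in 46.4% of all 16436 such genes and by the mural label in 2.73%. Among the lists an epithelial label led for 3 of 4 myogenic factors, 3 of 6 receptor and synapse genes, 5 of 6 fast, 7 of 8 slow, 7 of 9 shared, 5 of 10 calcium and 5 of 7 energy genes, and the mural label for 2 each of the last 3. Some of these genes passed the filter only through the 3 cells (Myf6 and Myl1 among them), so nothing is read from these counts.

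Among myogenic factors, of which 1 of 3 tested passed the 10-fold mark, Myf6 (a late myogenic factor) had 46 UMIs in cell 1 and 0 in every other epithelial cell. Mef2c, a partner of the myogenic factors, had 11, 2 and 1 UMIs. Myod1 and Myf5, the early determination factors, had 0 UMIs in all annotated stromal cells. Among genes of the receptor and synapse (1 of 5), the receptor subunit genes followed Chrna1 in part. Chrnd (delta) had 4, 1 and 7 UMIs and Chrnb1 (beta) 2, 5 and 0. Chrng (the fetal gamma subunit) had 2 UMIs, both in cell 3. By label Chrnd was higher in mimetic(tuft), at 39.1 CPM, than under mimetic(muscle), at 23.0 CPM, and Chrnb1 was at 21.3 and 23.0 CPM.

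The sarcomere genes were in part shared by the 3 cells and in part differed between them. Of the 10 fast, 12 slow and 13 shared genes, 1, 2 and 6 had a UMI in all 3 cells. Mybpc1 of the slow list and Tpm2 of the shared list, with 60 and 88 UMIs, were among these. Of the fast list 1 of 3 tested passed, of the slow, cardiac and developmental list 3 of 8, and of the shared list 2 of 7. Cell 1 was high in Myl1, a fast myosin light chain, with 168 UMIs against 0 and 1 in the others. Cell 2 was high in Acta1, skeletal alpha-actin, with 80 UMIs against 2 and 3. Cell 3, the shallowest, had 9 UMIs of the slow troponin I gene Tnni1 against 0 and 4. Tnnc2, fast troponin C, had 1, 25 and 18 UMIs. Ttn (titin) had 117, 43 and 16 UMIs and Neb (nebulin) 55, 34 and 56, so both giant sarcomere genes were in all 3. Ttn was 63.6-fold higher in the 3 cells than in the other epithelial cells (54.1 to 74.5) and Neb 441-fold (351 to 553).

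Of the calcium list 4 of 10 tested passed. Atp2a1, the fast-fibre calcium pump beside the Ryr1 channel, had 24, 2 and 3 UMIs, and Trdn (triadin, an anchor of the channel complex) had 3, 2 and 1. Sln, a pump inhibitor, had 18 UMIs, all in cell 1. Of the energy list 2 of 7 passed. Cox6a2, a muscle subunit of cytochrome oxidase, had 17, 9 and 7 UMIs. Ckb, the brain-type kinase that pairs with Ckm, had 49, 8 and 25 UMIs.

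**Figure D4:**
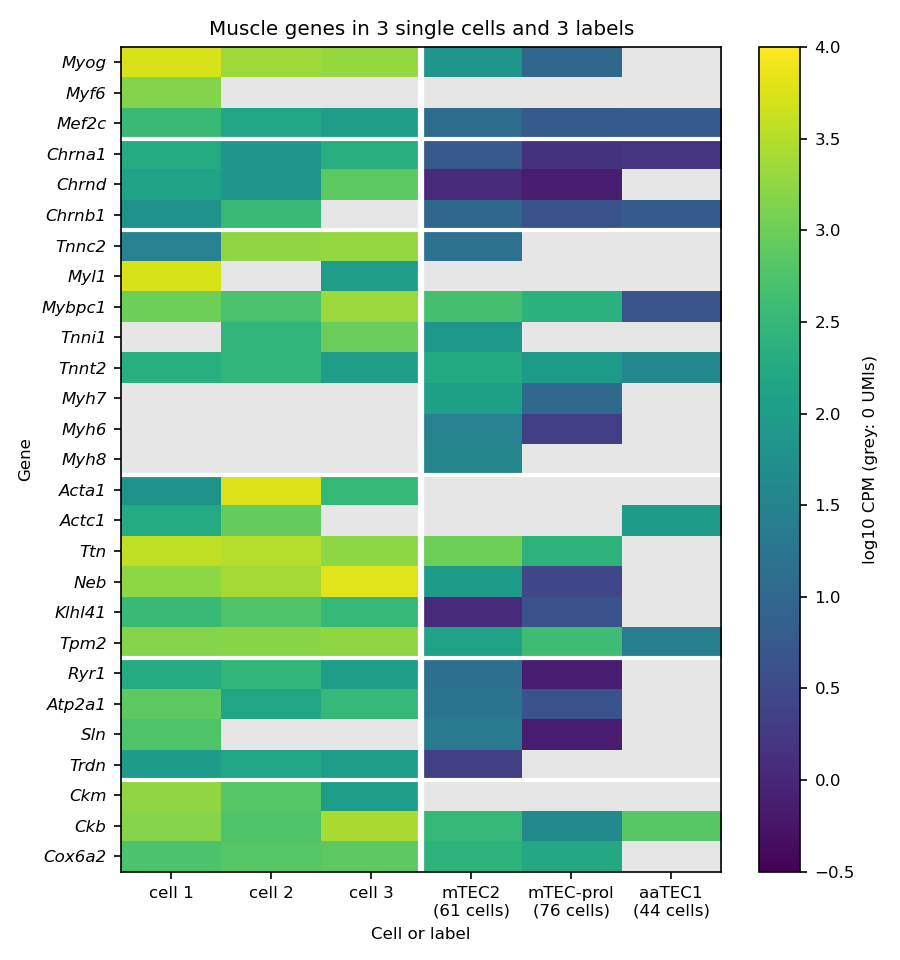
Level (log10 CPM, colour, grey for 0 UMIs) of 27 members and list genes in the 3 single cells and, pooled, in mTEC2, mTEC-prol and aaTEC1. Ckm and Acta1 have 0 UMIs in the 3 labels, Myh6, Myh7 and Myh8 have 0 in the 3 cells, and Actc1 is present in aaTEC1 but not in mTEC2.

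Myog had a second site in Aire-bearing medullary cells. Under mimetic(muscle) its level was 422 CPM (368 to 482, 220 UMIs in 3 of 35 cells), or 100.2 CPM without cell 1. In mTEC2 it was 70.8 CPM (54.3 to 90.8), from 62 UMIs in 17 of 61 cells (27.9%, 17.1 to 40.8%). In mimetic(tuft) it was 21.3 CPM (7.83 to 46.5, 6 UMIs) and in mTEC-prol 10.2 CPM (5.6 to 17.2, 14 UMIs in 5 of 76 cells), and the intervals of these 2 neighbours overlapped. The highest mTEC2 cells held 14, 11, 8, 7 and 6 UMIs, 2 more held 4 and 2, and 10 held 1 each, so the signal was spread over several cells. In mTEC1, cTEC and early Pr it came from 2, 1 and 1 UMIs, and aaTEC1, aaTEC2 and mimetic(goblet) had 0. The ratio of mTEC2 to mTEC1 was 228 (60.5 to 1923, on 2 UMIs in mTEC1).

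In mTEC2, 27.9% of cells had a Myog UMI at a median depth of 13378 UMIs. In fibroblasts, which should lack the gene, 0.170% (14 of 8216) did at a median depth of 9006.5. Thinned to 1000 UMIs per cell, 1 of 60 mTEC2 cells kept a Myog UMI (1 shallower cell was left out), so shares at that depth cannot order the labels. Depth moved with detection within mTEC2: the 17 cells with a Myog UMI had a median of 16518 UMIs and the other 44 a median of 9707.5. Aire moved with it too, at 736 CPM (15 of 17 cells) against 320 CPM (25 of 44 cells). The 10 thymocyte genes had 79 UMIs in the 17 cells (median 2) and 87 in the 44 (median 1). The 13 mTEC2 cells with 3 or more UMIs of those genes held 31 of the 62 Myog UMIs, at a median depth of 21619 UMIs. The other 48 held 31 in 12 cells, at 50.0 CPM (34.0 to 71.0). The part of depth and of thymocyte RNA in this was not tested.

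Other muscle genes in mTEC2 were only in part those of the 3 cells. Genes were compared where mTEC1, the label set against mTEC2, had at least 20 UMIs, and 5.56% of the 12689 such genes were at least 3-fold higher in mTEC2. No member passed that filter. Of the 26 list genes that did, 9 were at least 3-fold higher (Ache, Colq, Cox6a2, Eno3, Ryr2, Sln, Tnnt2, Trim63 and Ttn), with a median ratio of 1.61 against 0.868 over all genes tested, and 52 of the 78 list genes were not tested. Of the 9, 4 had also passed the 10-fold mark in the 3 cells and 2 had 0 UMIs there. Ttn had 900 UMIs in 43 of the 61 cells (1028 CPM) and Tnnt2, cardiac troponin T, 159 UMIs in 32. Among the heavy chains of myosin, Myh7 (slow and cardiac) had 100 UMIs in 29 cells, Myh8 (perinatal) 31 in 4 and Myh6 (cardiac) 27 in 10, and all 3 had 0 UMIs in the 3 cells. Ckm, Actc1 and Acta1 had 0 UMIs in mTEC2, where 3 UMIs would be 3.43 CPM.

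Chrna1, the alpha subunit that carries the acetylcholine site, had 20 epithelial UMIs in 11 cells. Its level was 17.3 CPM under mimetic(muscle) (7.90 to 32.8, 9 UMIs), 10.7 CPM in mimetic(tuft) (2.20 to 31.2, 3 UMIs) and 5.71 CPM in mTEC2 (1.85 to 13.3, 5 UMIs in 4 cells). Neighbours in this order overlapped in their intervals. Without cell 1 the level under mimetic(muscle) was 6.13 CPM, below mimetic(tuft) with all its cells. In mimetic(tuft), 2 of the 3 UMIs were in 1 cell, so this order rested on single cells too. Levels of 1.59 CPM in aaTEC1 and 1.46 CPM in mTEC-prol rested on 1 and 2 UMIs. mTEC1 had 0 UMIs, so the level in mTEC2 was at least 12.2-fold higher against 3 UMIs. Outside epithelium the label EC:capEC had 7 UMIs in 5 of 636 cells (1.57 CPM).

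Ckm, the cytosolic creatine kinase of differentiated muscle, had UMIs in the fewest epithelial cells, 5 of 2295. Its level was 127 CPM under mimetic(muscle) (98.0 to 161), all 66 UMIs being in the 3 cells. Without cell 1 it was 20.4 CPM, and as a mean of the cells' own CPM 71.8. The other 2 epithelial UMIs were in 2 cells of early Pr (0.165 CPM), and the 8 other labels of at least 20 cells had 0. The fibroblast labels had 4 UMIs in 4 of 8216 cells and the endothelial labels 2 UMIs in 2 of 1072 cells, so UMIs as sparse as those of early Pr also occurred in cells that should lack the gene.

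Ryr1, the calcium release channel, was highest under mimetic(muscle) at 21.1 CPM (10.5 to 37.8, 11 UMIs) and next in mTEC2 at 13.7 CPM (7.08 to 23.9, 12 UMIs in 6 cells), which overlapped. Without cell 1 the level under mimetic(muscle) was 10.2 CPM, below mTEC2 with all its cells. In mTEC2, 5 of the 12 UMIs were in 1 cell, so the order of these labels rested on single cells. Ryr1 was 22.0-fold higher in mTEC2 than in mTEC1 (6.68 to 93.8, on 12 and 4 UMIs). Of the 6 mTEC2 cells 1 had a UMI of Myog as well, and that cell had 1 UMI of each. The myeloid label had 23 UMIs in 21 of 505 cells (3.81 CPM) and the thymocyte library 177 UMIs in 164 of 8546 cells (2.75 CPM), so Ryr1 was not restricted to epithelium.

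Actc1 had most of its UMIs in the initial cluster TEC-e, where Myog and Ckm had 0. Cells 1 and 2 held it too, with 6 and 12 UMIs. Its level was 98.3 CPM in aaTEC1 (75.4 to 126, 62 UMIs in 20 of 44 cells), 84.5 CPM under mimetic(muscle) (61.4 to 113) and 63.0 CPM in mimetic(goblet) (47.3 to 82.2, 54 UMIs in 22 of 55 cells), and neighbours overlapped. In mimetic(tuft) it was 28.5 CPM (12.3 to 56.1), while mTEC1 had 1 UMI and mTEC2, mTEC-prol, cTEC and early Pr had 0. The 133 epithelial cells of TEC-e held 159 UMIs (75.7 CPM) and the 2162 others 19 (0.709 CPM), 18 of these in cells 1 and 2. The ratio was 107 (66.1 to 182). Among TEC-e cells with a UMI of Foxi1, 58 of 127 had Actc1 (45.7%, 36.8 to 54.7%). Without Foxi1, 2 of 6 TEC-e cells did, and of cells with Foxi1 outside TEC-e 0 of 3. Among epithelial cells with neither that cluster nor Foxi1, 3 of 2159 did (0.139%), at a median depth of 11094 UMIs against 15490 in the TEC-e cells with Foxi1. Fibroblasts had 1 UMI in 8216 cells.

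Tnnt3, fast troponin T, was highest outside the epithelium, in the fibroblast label capFb at 64.5 CPM (60.6 to 68.5, 1042 UMIs in 677 of 1358 cells), followed by TMC1 at 33.5 and TMC2 at 26.6 CPM. Among epithelial labels aaTEC2 led with 20.1 CPM (10.1 to 36.0, 11 UMIs) before mTEC2 with 11.4 CPM (5.48 to 21.0, 10 UMIs), mimetic(goblet) with 5.83 and early Pr with 4.37 CPM (53 UMIs in 41 of 1018 cells). The intervals of aaTEC2 and mTEC2 overlapped. mimetic(muscle), mimetic(tuft), mTEC-prol and aaTEC1 had 0. A sum of 5 fibroblast genes (Pdgfra, Col1a1, Col3a1, Dcn and Lum) moved with it, at 29264 CPM in aaTEC2 against 3025 CPM in mTEC2 and 503 CPM in aaTEC1. Per 1000 UMIs of those genes, Tnnt3 had 0.688 UMIs in aaTEC2, 0.711 in cTEC and 1.14 in early Pr, within the 0.754 to 1.39 of fibroblast labels or below it. In mimetic(goblet) it had 1.81, on 5 UMIs, and in mTEC2 3.78, where 4 of the 10 UMIs were in 1 cell. The part of fibroblast RNA in the epithelial counts was not tested.

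**Figure D5:**
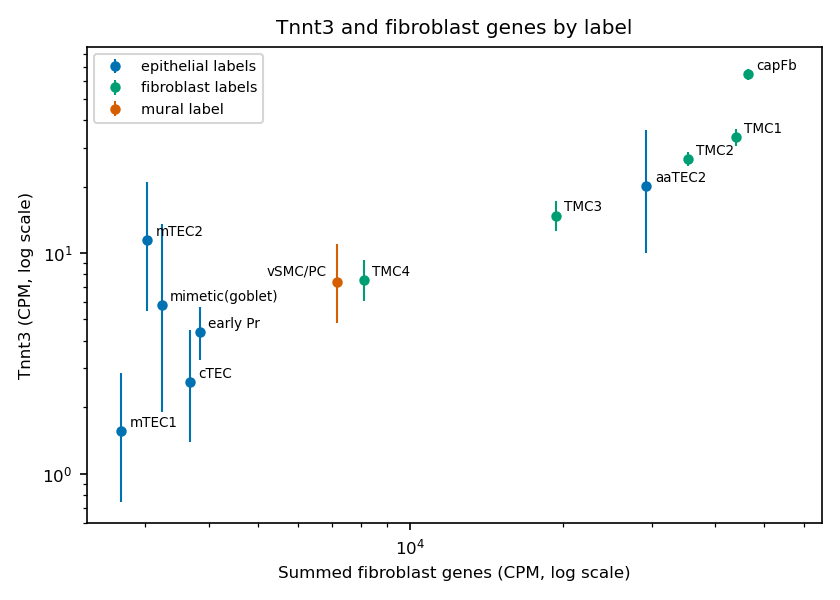
Tnnt3 (CPM with 95% Poisson interval) against the sum of 5 fibroblast genes (CPM), both on log scales, for epithelial, fibroblast and mural labels with a Tnnt3 UMI. The fibroblast label capFb is highest at 64.5 CPM, and mTEC2 at 11.4 CPM and mimetic(goblet) at 5.83 lie above mTEC1, cTEC and early Pr.

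The mural label, whose cells are contractile but of smooth muscle type, had UMIs of 2 of the 6 genes. Myog, Chrna1, Ckm and Actc1 had 0 UMIs in its 452 cells, where 3 UMIs would be 0.890 CPM. Ryr1 had 1 UMI. Tnnt3 had 25 UMIs in 17 cells (7.41 CPM, 4.80 to 10.9) beside 7170 CPM of fibroblast genes. The sum of the 6 genes was 3.21-fold higher in epithelium than in the mural label (2.17 to 4.74, 714 against 26 UMIs). That ratio was 1.64 (1.10 to 2.44) without the 5 cells with most member UMIs. Without Tnnt3 it was 71.5, resting on 1 mural UMI (10.1 to 508). The sum of the 6 genes was 5877 CPM in the 3 cells and 86.9 CPM in TEC-e cells of other labels. In the 2157 epithelial cells outside mimetic(muscle) and TEC-e it was 8.20 CPM (7.15 to 9.37). The mural label had 7.71 CPM (5.04 to 11.3), and these 2 intervals overlapped.

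Genes outside the lists that were most alike in their pattern were ranked by Pearson r of log2(CPM + 1) over the 2747 cells, among 19770 genes with a UMI in at least 5 cells. These cells share 1 library and differ in depth, and a few cells can set r for sparse genes. For Chrna1 and Ryr1 the first was Klk1, a kallikrein, at r = 0.638 and 0.325. For Ckm, Klhl40, a sarcomere-stabilising protein, was first at 0.633 and Klk1 second at 0.625. Klk1 had 31 of its 40 UMIs in the 3 cells and Klhl40 12 of its 20. For Myog the first was Cfap95 at 0.486, with 0 of its 105 UMIs in the 3 cells, then Cst7 at 0.441 and Klk1 at 0.428. For Actc1 the 3 included Asgr1 at 0.637 and Wfdc10a at 0.632. For Tnnt3 they were Lsp1 at 0.333, Fap, a fibroblast protease, at 0.307 and Fbln2, a matrix protein, at 0.305.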

How the data were processed

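Levels were computed from 10x Genomics count tables of 1 stromal and 1 thymocyte library. The deposited values are whole-number UMI counts per gene and cell, made by the authors, and the deposited cell annotation gives the authors' labels with UMI and gene counts and the percent of mitochondrial counts per cell. The build mRatBN7.2, Cell Ranger 8.0.0 and Seurat 5.3.0 are named per the submitters' processing notes. A cell's label was the projected label, or else the initial cluster. Barcodes without annotation (2934) were left out of the labels. No filter on depth was added and no doublet caller was run. Analysis used Python 3.11.15, NumPy 2.4.6, SciPy 1.17.1 and pandas 2.3.3.

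UMIs were summed by label. Intervals are exact Poisson for CPM, Clopper-Pearson for shares and exact conditional for ratios, except the ratio to the mural label (log-normal). They cover counting error only. With 1 library per group there was no test and no p-value. A ratio to 0 UMIs was taken against 3 UMIs over the label. Cells of at least 1000 UMIs were thinned at random where shares were compared. The scripts for the top-cell share and for likeness were tested on simulated data. The 6 genes and the muscle and marker lists were chosen with earlier results of these data known. Named genes were the 6 members, up to 4 genes of each muscle list with most UMIs in the 3 cells, and for each member the 3 genes outside the lists with the highest Pearson r. Of these, 1 gene is not reported here. Trdn, Klhl41 (plotted only), Myod1, Myf5, the myosin heavy chain genes and the genes listed as higher in mTEC2 were named after their values were seen. The spatial section was not used here.

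Some choices were changed after results were seen. The comparison of the 3 cells first took genes with at least 20 UMIs over all epithelial cells, which a gene could reach through the 3 cells themselves, and was changed to at least 20 UMIs in the other epithelial cells. The comparison of mTEC2 with mTEC1 was changed in the same way, from 20 UMIs in both labels together to 20 UMIs in mTEC1. The marks of 10-fold and 3-fold were set after results of these data were known. Promoter sequences are from RefSeq, build GRCr8.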

Additional observations from a re-analysis of the deposited data

Results flagged for a closer look

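Barcodes without annotation, which no comparison used, held UMIs of 4 members above the 3 UMIs that a count of 0 allows. There were 2934 such barcodes with 8663291 UMIs. Myog had 17 UMIs in 12 barcodes (1.96 CPM, 1.14 to 3.14), at most 6 in 1. Actc1 had 10 UMIs in 3 barcodes (1.15 CPM, 0.554 to 2.12), again at most 6 in 1. Tnnt3 had 94 UMIs in 75 barcodes (10.9 CPM, 8.77 to 13.3), and Ryr1 12 UMIs in 10 (1.39 CPM, 0.716 to 2.42). No unannotated barcode had 3 or more members.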

How the results depend on the processing

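No paired analysis was possible because there was only 1 library of each kind. Limits are set by sparse UMIs: shares of cells depend on depth, and small counts leave wide intervals. Pooled epithelium stayed above the mural label for the member sum under every setting run. Outside TEC-e and mimetic(muscle), not among those settings, the epithelial sum was 8.20 CPM against 7.71 CPM, and the intervals overlapped. The label with the highest level changed for Chrna1 and Ryr1 without cell 1, other labels keeping all their cells.

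Thinned to 1000 UMIs per cell, the share of epithelial cells with a UMI fell from 1.35% to 0.264% for Myog, 0.479% to 0.0440% for Chrna1, 0.218% to 0.0879% for Ckm, 2.75% to 0.396% for Actc1, 3.44% to 0.176% for Tnnt3 and 1.05% to 0.132% for Ryr1. The share of UMIs in the top cells was, for 1 cell in place of 5, 55.9% for Myog, 30.0% for Chrna1, 82.4% for Ckm, 6.74% for Actc1, 3.94% for Tnnt3 and 14.6% for Ryr1. For 10 cells it was 91.2% for Myog, 95% for Chrna1, 43.8% for Actc1, 22.8% for Tnnt3 and 63.4% for Ryr1. Thinned, the 5-cell share was 88.9% for Myog, 55.6% for Actc1 and 100% for Chrna1, Tnnt3 and Ryr1, on at most 9 UMIs each. For Myog it was 88.7% without cells with 3 or more thymocyte UMIs. Without the 3 cells, an alternative chosen after seeing the data, it was 55.8% on 86 UMIs.

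Cells with at least 2 members numbered 14 in place of the 3 with at least 3. The other settings for that count gave 2 or 3 cells. The ratio of the member sum between epithelium and the mural label was 3.21, and moved to 1.64 without the 5 cells with most member UMIs, 1.83 without Myog and 71.5 without Tnnt3. The cause of these shifts was not tested beyond the change in cells or genes counted.

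Of the alternatives run for levels, 11 moved a level beyond its counting interval and 26 did not. With the initial cluster in place of the label, the highest cluster was TEC-a for Myog (57.4 CPM), Chrna1 (6.15), Ckm (10.2) and Ryr1 (7.17). As a mean of the cells' CPM, Myog under mimetic(muscle) was 272 CPM and Ckm 71.8. Without the cell with most UMIs they were 100.2 and 20.4 CPM, Chrna1 6.13 and Ryr1 10.2, an alternative chosen after seeing the data. Myog in mTEC2 was 50.0 CPM without cells with 3 or more thymocyte UMIs, also chosen after seeing the data.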
